A study of Mus musculus with 16 samples.

Results

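Genes that the transcription factor p53 switches on were followed in RNA from sorted mouse lung endothelial cells (ECs), which form the inner lining of blood vessels. The members were chosen by name, as Cdkn1a, Pmaip1, Mdm2, Ccng1, Phlda3, Eda2r, Zmat3, Bax, Trp53inp1 and Aen, and all 10 were found among the 43346 genes of the deposited table. The cells came from FVB mice carrying a Col1a1-GFP transgene, a green reporter of a collagen gene, and were sorted for the endothelial protein CD31, leaving out cells with the leukocyte protein CD45, the epithelial protein EpCAM or GFP. Mice were 2 months old (young) or 18 months old (aged) and received either bleomycin, at about 1 U/kg into the trachea, or the saline carrier (sham), and lungs were taken 30 days later. The labels give 16 libraries in 4 groups, Young Sham (n = 5), Aged Sham (n = 3), Young Bleo (n = 4) and Aged Bleo (n = 4). The study used female and male mice, and the labels used here do not tie sex to a library. Libraries are named here by their group and the number in their title.

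p53, encoded in the mouse by Trp53, is held at a low level by the ubiquitin ligase Mdm2 and accumulates when DNA is broken or growth signals are abnormal. It then binds DNA as a tetramer and raises transcription of genes that stop the cell cycle, favour cell death, repair DNA or feed back on p53 itself. Bleomycin is a chemotherapy drug that breaks DNA strands, and in the lung it is used to cause injury and fibrosis.

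Total counts per library ranged from 20.9 M to 71.0 M. The endothelial genes Cdh5 and Pecam1 had at least 26994 and 48835 normalized counts in every library, where a normalized count is a read count divided by the library's DESeq2 size factor. In bulk RNA, fewer cells of a type and less RNA per cell cannot be told apart. The labels name no animal for a library, while the study plots its chromatin libraries by single mouse and took the RNA from those lungs, so the libraries are read here as separate mice. A gene was called in a comparison when its DESeq2 p, adjusted over all genes tested by the Benjamini-Hochberg method, was 0.05 or lower and its log2 fold change was 0.5 or more in either direction.

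p53 recognises a pair of adjacent half-sites, and promoter sequence shows which members carry such a pair beside their start. RefSeq promoter windows (GRCm38.p6, 250 bases before to 50 after a start) were held for 7 of the 10 members, and not for Pmaip1, Zmat3 or Trp53inp1. Windows were searched for the p53 consensus half-site and for the full p53 consensus site, meaning 2 half-sites with no spacer, the central C and G of each kept and at most 1 mismatch over 20 bases. Both patterns read the same on either strand, and a full match can contain a half-site match. A full match was present in 22 of 32851 windows (0.067%), and in the windows of Cdkn1a and Ccng1 among the members. A half-site without mismatch was present in 8.36% of all windows, and counted by gene in a window of 2582 of 27025 genes. Among the 7 members with a window it was present for 5, Cdkn1a, Ccng1, Mdm2, Bax and Aen. The 100-base stretches below, read 5′ to 3′ on the gene's own strand, are shown because they hold these letters, with the full match in capitals for Cdkn1a and Ccng1 and the half-site in capitals for Mdm2 and Bax.
Cdkn1a, chr17:29090879-29090978, plus strand: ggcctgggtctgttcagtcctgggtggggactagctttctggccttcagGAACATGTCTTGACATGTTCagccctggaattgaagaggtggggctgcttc
Ccng1, chr11:40755437-40755536, minus strand: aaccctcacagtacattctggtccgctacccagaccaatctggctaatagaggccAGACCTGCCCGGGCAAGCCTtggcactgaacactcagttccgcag
Mdm2, chr10:117710909-117711008, minus strand: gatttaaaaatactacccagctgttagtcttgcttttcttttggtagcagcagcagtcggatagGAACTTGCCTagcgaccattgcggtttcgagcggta
Bax, chr7:45467049-45467148, minus strand: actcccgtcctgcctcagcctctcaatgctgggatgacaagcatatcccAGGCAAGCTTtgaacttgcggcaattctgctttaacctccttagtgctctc

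Cdkn1a has 2 windows, for 2 starts, and the one that begins at position 29093519 held neither pattern. The match in the other began 51 bases before its start, and its mismatch was at position 11 of 20, counted from the 5′ end. The Ccng1 match began 195 bases before the start, and its mismatch, at position 5, lies inside the core, between the central C and G of its first half-site. Such a match is a description of letters, and binding was not measured in these libraries. Windows without a match say only that these letters are not in them, since p53 sites can lie elsewhere in a gene.

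Per kilobase of transcript the members covered a wide range. On the deposited FPKM scale (fragments per kilobase and per library depth), the mean in Young Sham was 130.2 for Phlda3, 129 for Cdkn1a and 107 for Bax, each with an SD between 11.1 and 19.4. Between Phlda3 and Cdkn1a the level differed by less than that spread. Pmaip1 (6.07), Mdm2 (4.46), Ccng1 (4.12) and Aen (3.17) formed a middle set, in which Mdm2 and Ccng1 differed by less than their SDs (0.916 and 0.882). Trp53inp1 (1.94), Eda2r (0.642) and Zmat3 (0.436) were the lowest, and Eda2r and Zmat3 differed by less than the SD of Eda2r (0.218). The order changed at the top, with Cdkn1a first in Aged Sham (247 ± 48.1, n = 3) and in Aged Bleo (144 ± 63.4, n = 4), and behind Bax and Phlda3 in Young Bleo (63.7 ± 28.8, n = 4). In Aged Bleo its distance from Bax (119) was within that SD.

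**Figure D1:**
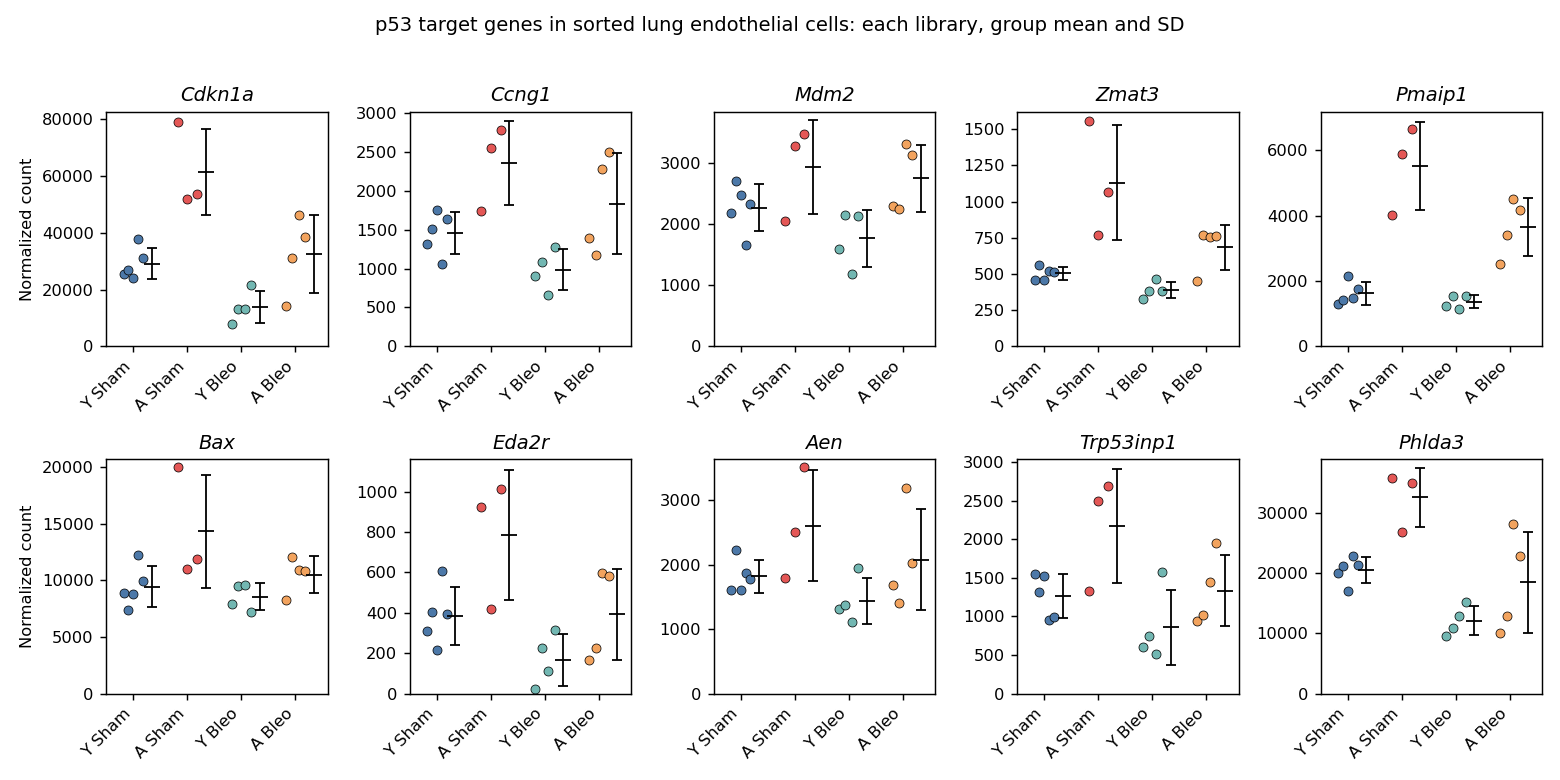
Normalized counts (vertical axes, linear, from 0) of the 10 p53 target genes in each library (points) of Young Sham, Aged Sham, Young Bleo and Aged Bleo, with the group mean and SD (bars beside the points). Aged Sham has the highest mean and Young Bleo the lowest mean in every panel.

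The fold changes of these genes are given first for age and then for bleomycin. In uninjured lungs all 10 members had a higher mean in aged than in young ECs, with a median log2 fold change of 0.74, beside 0.02 over all 18515 genes tested, of which 52.1% were positive. After bleomycin the same 10 were again higher in aged ECs, with a median of 0.72 beside 0.02 (52.2% positive), and these 2 comparisons share no library. Bleomycin went with lower values of all 10, both in young ECs (median -0.46, beside 0.0095 and 49.1% negative over all genes) and in aged ECs (median -0.65, beside 0.0061 and 49.4% negative), again with no library in common. Each comparison of ages does share a group with each comparison of bleomycin, and Aged Sham and Young Bleo enter these with opposite signs, so the opposite directions for age and bleomycin are not independent of each other. In the last of these Mdm2 turned slightly positive with FPKM values in place of counts and without Aged Sham 15. Few of the single genes passed the test, as given further on.

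Immediate early and heat shock genes, which dissociation of tissue is known to induce, also differed between these groups. Of 10 such genes 4 were called higher in Aged Sham than in Young Sham, among them Fos (log2 2.15, DESeq2 adjusted p = 1.44e-09), Fosb (1.93, 1.43e-09) and Junb (1.15, 1.6e-05), where 2.24% of all genes were called higher. Against Young Sham 3 of 10 were also called higher in Young Bleo (7.57% of all genes) and 4 of 10 in Aged Bleo (6.58%). Not all went 1 way. Against Young Sham 6 of 10 were positive and 4 negative in Aged Sham, 6 and 4 in Young Bleo, and 9 and 1 in Aged Bleo. In Aged Bleo against Young Bleo all 10 had positive fold changes (median log2 0.46, beside 0.02 over all genes), as had all 10 members (0.72). Fos was log2 1.89 higher in Young Bleo than in Young Sham (DESeq2 adjusted p = 3.3e-09), and its bleomycin response was called lower in aged than in young ECs (-1.65, adjusted p = 0.0322; edgeR adjusted p = 0.352), in 7 of the 16 fits that leave out 1 library. Summed over the 10 genes the groups overlapped, at 75865 to 113270 normalized counts in Young Sham, 81932 to 138886 in Aged Sham, 66544 to 112039 in Young Bleo and 70479 to 150184 in Aged Bleo. Their part in the results on the members was not tested.

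In Aged Sham against Young Sham 3 of 10 members were called higher and none lower, where 2.24% of all genes tested were called higher. After bleomycin 3 of 10 were called higher in aged than in young ECs, against 0.616% of all genes. In Young Bleo against Young Sham 2 of 10 were called lower, against 6.35% of all genes, and in Aged Bleo against Aged Sham 1 of 10 was called lower, against 2.44%. Against Young Sham 1 of 10 was called higher in Aged Bleo, where 6.58% of all genes were. These shares give each count its background, and with 10 genes they are no test of the set. The study had already reported Cdkn1a and Pmaip1 as raised with age, so this was known before the members were chosen here. The 10 calls fell on 4 members, Cdkn1a, Pmaip1, Zmat3 and Phlda3. edgeR's quasi-likelihood test gave 2 of 10 in Aged Sham against Young Sham (0.699% of all genes higher), 1 of 10 in Aged Bleo against Young Bleo (0.0382% higher), 1 in Young Bleo against Young Sham (4.09% lower), 0 in Aged Bleo against Aged Sham (0.349% lower) and 1 in Aged Bleo against Young Sham (4.2% higher). Thus 5 of the 10 DESeq2 calls were also made by edgeR. In counts simulated for Aged Sham and for Young Bleo against Young Sham, DESeq2 made more false calls than its threshold allows and edgeR did not. Those counts were drawn with edgeR's own estimates of library size and spread, so they cannot rank the tests on the real libraries. A call made by DESeq2 alone is less secure in that edgeR did not repeat it. In the comparison where edgeR called 0, 4 members had an unadjusted edgeR p under 0.05.

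**Figure D2:**
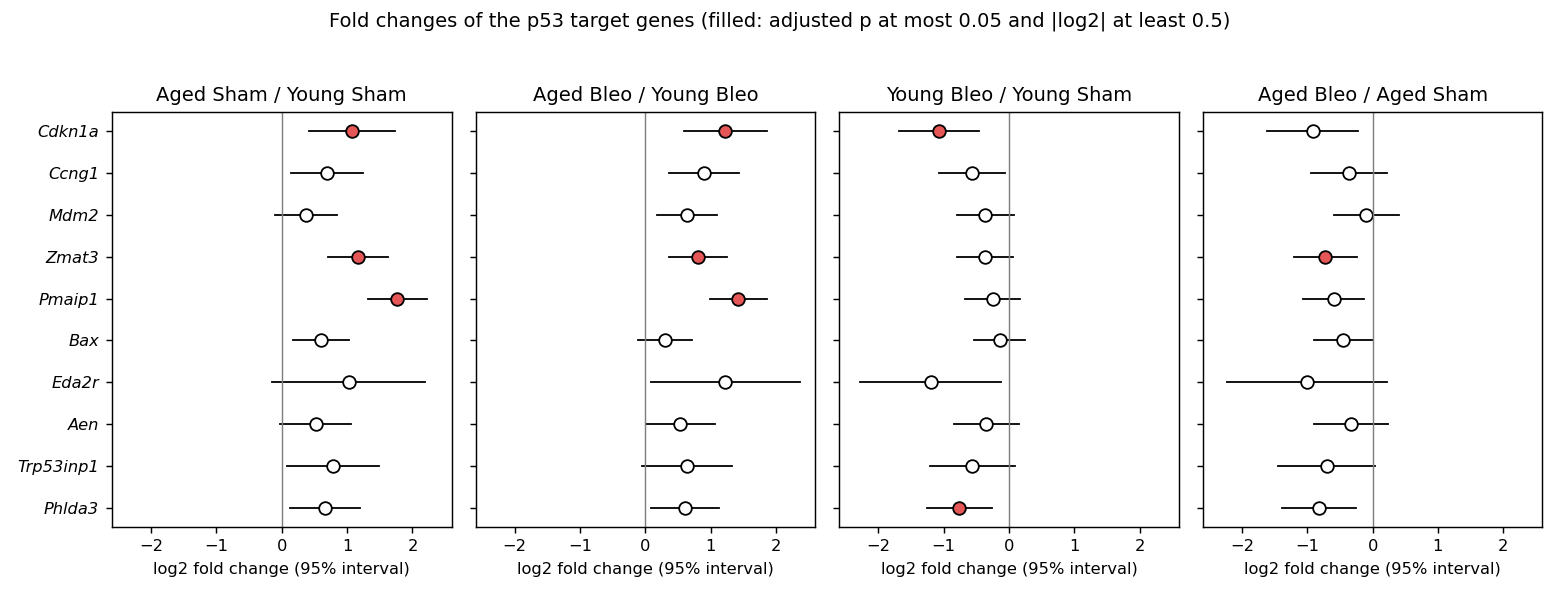
DESeq2 log2 fold change (points) with its 95% interval (lines) for the 10 genes in 4 comparisons, where each horizontal axis runs from lower to higher in the first-named group. Filled points were called. All 10 points lie right of 0 in both comparisons of aged with young, and left of 0 in both comparisons of bleomycin with sham.

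Cdkn1a (ENSMUSG00000023067, chr17:29090979-29100722, plus strand) encodes p21, the inhibitor of cyclin-dependent kinases through which p53 stops the cell cycle. Young Sham libraries had 25530.5, 27067, 24277, 37923 and 31192 normalized counts (libraries 21 to 25). The 3 Aged Sham libraries (13, 14 and 15) had 78960.3, 51899 and 53786, all above every Young Sham library. After bleomycin the young libraries (17 to 20) fell to 7777, 13181, 13109 and 21588, all below every Young Sham library. The Aged Bleo libraries (1, 2, 3 and 5) spread widely, at 14389, 31031, 46329.5 and 38406, and overlapped both young groups.

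The Cdkn1a mean was thus 2.11-fold higher in Aged Sham than in Young Sham (log2 1.08 ± 0.34 SE, DESeq2 adjusted p = 0.0416). That call was close to the threshold and edgeR did not make it (adjusted p = 0.142). It was lost without any one of Aged Sham 13 (log2 0.86, DESeq2 adjusted p = 0.249), Aged Sham 14 (0.0826), Aged Sham 15 (0.0643), Young Sham 21 (0.104), 22 (0.1), 23 (0.108) or 25 (0.0706), and Young Bleo 18 (0.0545) or 19 (0.0533), where the values in brackets are adjusted p-values. The decrease in Young Bleo against Young Sham was 2.10-fold (log2 -1.07 ± 0.31, DESeq2 adjusted p = 0.00653; edgeR adjusted p = 0.0389) and was called without any single library. After bleomycin, Cdkn1a was 2.34-fold higher in aged than in young ECs (log2 1.23 ± 0.33, DESeq2 adjusted p = 0.0232). edgeR gave an adjusted p of 0.246 there, and the DESeq2 call was lost without Aged Bleo 3 (0.164) or 5 (0.126) and without Young Bleo 17 (0.12), 18 (0.0833) or 19 (0.0996). Aged Bleo lay 1.89-fold below Aged Sham with no overlap (log2 -0.92 ± 0.35), but the DESeq2 adjusted p was 0.0990, and 0.0251 without Aged Bleo 3.

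Ccng1 (chr11:40748552-40755311, minus strand) encodes cyclin G1, a cyclin that acts in the loop between p53 and Mdm2, and its window holds the other match to the full site with 1 mismatch. Its normalized counts were 1316, 1507, 1757, 1063 and 1643 in Young Sham, and 1740.5, 2545 and 2775 in Aged Sham, where the lowest library fell within the young range. They were 904, 1081, 663 and 1281 in Young Bleo and 1390.1, 1172, 2279 and 2499.7 in Aged Bleo. No comparison called Ccng1. The nearest was Aged Bleo against Young Bleo (log2 0.90 ± 0.27, DESeq2 adjusted p = 0.0688), which passed without Young Bleo 20 (1.05, adjusted p = 0.0167), Aged Bleo 1 (0.0325), Aged Bleo 2 (0.0165) or Aged Sham 13 (0.0488).

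Mdm2 (chr10:117688888-117710758, minus strand) encodes the ligase that marks p53 for degradation, and is itself raised by p53. It varied least with age in sham mice among the 10. Young Sham libraries had 2193, 2703, 2487, 1663 and 2327 normalized counts and Aged Sham libraries 2054, 3278 and 3484, with overlap and a log2 difference of 0.37 (95% interval -0.10 to 0.85). Young Bleo (1601, 2152, 1191 and 2136) lay below every library of Aged Bleo (2296, 2258, 3320.0 and 3134). That difference was 1.55-fold (log2 0.64 ± 0.23) with a DESeq2 adjusted p of 0.193, so it was not called. Groups that do not overlap in this direction were found for 2 of the 10 members, Mdm2 and Pmaip1, and for 2.81% of all genes.

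Zmat3 (chr3:32334792-32366014, minus strand) encodes a zinc-finger protein that binds RNA. It was steady in Young Sham, at 459.8, 564, 459, 519 and 517 normalized counts. Each Aged Sham library was above these, at 1557, 769.6 and 1067. The increase was 2.24-fold (log2 1.16 ± 0.23, DESeq2 adjusted p = 0.000133; edgeR adjusted p = 0.0197) and was called without any single library. Of 9 other tests, filters and scalings 5 kept the call, which was lost with each use of a further test, limma. Young Bleo libraries had 331, 385, 467 and 379, and Aged Bleo libraries 452, 770.2, 755 and 761.

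After bleomycin Zmat3 was 1.75-fold higher in aged ECs (log2 0.81 ± 0.23, DESeq2 adjusted p = 0.0374; edgeR adjusted p = 0.257). Only Aged Bleo 1 overlapped Young Bleo, but the call was lost without any one of 10 of the 16 libraries, with adjusted p-values from 0.0515 without Young Sham 24 to 0.166 without Young Bleo 17. Aged Bleo was 1.65-fold below Aged Sham (log2 -0.72 ± 0.24, DESeq2 adjusted p = 0.0485; edgeR adjusted p = 0.133). This was the single call of that comparison and was lost without any one of 12 libraries and under each other test or scaling tried, with log2 -0.43 and adjusted p = 0.326 without Aged Sham 13.

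Pmaip1 (chr18:66458604-66465550, plus strand) encodes Noxa, a BH3-only protein that blocks pro-survival BCL-2 proteins, and it changed more with age than any other member. The 5 Young Sham libraries had 1308, 1410.4, 2155, 1474 and 1761 normalized counts. The 3 Aged Sham libraries had 4016, 5896 and 6648, and the 4 Aged Bleo libraries 2506, 3418, 4516 and 4172. Young Bleo had 1235, 1534, 1147 and 1528. Every aged library, with or without bleomycin, was therefore above every young library.

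Pmaip1 was 3.41-fold higher in Aged Sham than in Young Sham (log2 1.77 ± 0.23, DESeq2 adjusted p = 4.62e-11; edgeR adjusted p = 0.00135). After bleomycin the difference between ages was 2.68-fold (log2 1.42 ± 0.22, DESeq2 adjusted p = 5.05e-07; edgeR adjusted p = 0.0340). Aged Bleo was 2.26-fold above Young Sham (log2 1.17 ± 0.21, DESeq2 adjusted p = 3.19e-06; edgeR adjusted p = 0.00412). These 3 calls held without any single library. Bleomycin itself went with no call, at log2 -0.25 (95% interval -0.67 to 0.16) in young ECs and -0.60 (-1.07 to -0.13, DESeq2 adjusted p = 0.125) in aged ECs, where it passed without Aged Sham 13 (-0.78, adjusted p = 0.0401).

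Bax (chr7:45461695-45466898, minus strand) encodes the pore-forming protein of mitochondrial apoptosis. Young Sham libraries had 8886, 7360.2, 8800.3, 12251 and 9901 normalized counts, and Aged Sham libraries 20054, 11036 and 11871. Young Bleo (7900.4, 9500.3, 9635 and 7167) and Aged Bleo (8243, 12068, 10936 and 10809) overlapped each other and Young Sham. The difference of Aged Sham from Young Sham was log2 0.60 ± 0.22 (DESeq2 adjusted p = 0.109) and passed without Young Sham 24 (0.71, adjusted p = 0.0332). In young ECs the response of Bax to bleomycin was the smallest of the 10, at log2 -0.14 (95% interval -0.54 to 0.25).

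Aen (chr7:78895854-78911209, plus strand), a nuclease that acts in apoptosis, was not called in any comparison. It had 1602, 2235, 1608, 1874 and 1781 normalized counts in Young Sham, 1790.4, 2512 and 3513 in Aged Sham, 1306, 1375, 1106 and 1946 in Young Bleo, and 1689.6, 1411, 3196 and 2023 in Aged Bleo. Its groups overlapped throughout.

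Eda2r (chrX:97333840-97377216, minus strand), a receptor of the TNF family that binds ectodysplasin A2, spread most between libraries. It had 309.7, 403, 217, 606 and 394 normalized counts in Young Sham and 925, 418 and 1012 in Aged Sham. In Young Bleo it had 21.7, 226, 110.2 and 315, the lowest of which rested on 25 reads in library 17. In Aged Bleo libraries 1 and 2 had 166 and 226, and libraries 3 and 5 had 595 and 579.9. The fold differences were close in size to those of Cdkn1a, with log2 1.02 ± 0.60 for age in sham, -1.20 ± 0.55 for bleomycin in young, -1.0 ± 0.63 for bleomycin in aged and 1.22 ± 0.58 for age after bleomycin. None was called (DESeq2 adjusted p from 0.130 to 0.439), except that the bleomycin difference in young ECs passed without Young Bleo 20 (-1.70, adjusted p = 0.0203).

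Trp53inp1 (chr4:11156431-11174379, plus strand) encodes a nuclear protein that promotes p53-dependent death and autophagy. Its normalized counts were 1544, 1312, 1528, 957 and 988 in Young Sham, and 1329, 2492 and 2697 in Aged Sham. Young Bleo libraries had 606, 744, 514 and 1569.5, and the last of these, library 20, was above every Young Sham library. Aged Bleo libraries had 937, 1016, 1443 and 1947. Trp53inp1 was not called, but without Young Bleo 20 it was lower in Young Bleo than in Young Sham (log2 -1.02, DESeq2 adjusted p = 0.0043) and higher in Aged Bleo than in Young Bleo (1.10, adjusted p = 0.0192). The same library decided Ccng1 in young ECs (-0.57 with it, and -0.72 with adjusted p = 0.0445 without it), so that the count of members called lower in Young Bleo went from 2 to 5. Over all genes the calls of that comparison, in both directions, also went up without it, from 2578 of 18515 to 3339 of 18389.

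Phlda3 (chr1:135766119-135769136, plus strand) encodes a PH-domain protein that restrains the survival kinase Akt. Young Sham libraries were tight, at 20075, 21296, 17145, 22952 and 21427 normalized counts. All Aged Sham libraries were above them (35920.3, 26974 and 35112) and all Young Bleo libraries below them (9664, 10915, 12863 and 15195). The Aged Bleo libraries fell into a low pair, 10107 and 12934 in libraries 1 and 2, and a high pair, 28178 and 22854 in libraries 3 and 5.

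Bleomycin went with a 1.69-fold decrease of Phlda3 in young ECs (log2 -0.76 ± 0.25, DESeq2 adjusted p = 0.0215), with an edgeR adjusted p of 0.0620 and no edgeR call. The DESeq2 call was lost without Young Bleo 17 (0.102), Young Bleo 18 (0.0827) or Young Sham 24 (0.0569). The 1.59-fold difference with age in sham was not called (log2 0.67 ± 0.27, DESeq2 adjusted p = 0.188), although the groups did not overlap, and it passed when these 2 groups were fitted alone (adjusted p = 0.00163). Aged Bleo against Aged Sham was also short of the threshold (log2 -0.82 ± 0.29, DESeq2 adjusted p = 0.0622) and passed without Aged Bleo 3 (-1.09, adjusted p = 0.00162) or Aged Bleo 5 (-0.94, adjusted p = 0.0355). After bleomycin the difference with age passed only without Aged Bleo 1 (0.81, adjusted p = 0.0392) among the alternatives run.

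The groups were also compared by whether their libraries overlapped. They did not overlap for 4 of 10 members in Aged Sham against Young Sham (Cdkn1a, Pmaip1, Phlda3 and Zmat3, each higher), where 4.95% of all genes tested did so in that direction. They did not overlap for 2 of 10 in Young Bleo against Young Sham (Cdkn1a and Phlda3, lower; 7.17% of all genes), for 1 of 10 in Aged Bleo against Aged Sham (Cdkn1a, lower; 6.14%) and for 1 of 10 in Aged Bleo against Young Sham (Pmaip1, higher; 5.82%).

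The response to bleomycin was compared between the ages with the difference of both log2 fold changes, aged minus young. No member was called, where 0.381% of all genes tested were called in either direction. The estimates ran from -0.35 (Zmat3) to 0.27 (Mdm2), and 5 of 10 were positive. The lowest unadjusted DESeq2 p of any member was 0.279, 0 members had a p under 0.05, and edgeR also called 0. The intervals were wide. For Cdkn1a the difference was 0.15 with a 95% interval of -0.77 to 1.07, for Pmaip1 -0.34 (-0.97 to 0.28) and for Eda2r 0.20 (-1.44 to 1.84).

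For 8 of the 10 members the 95% interval of the difference between Aged Bleo and Young Sham held 0. Of the 10, only Pmaip1 was called between them by DESeq2, and the other log2 differences ran from -0.15 (Phlda3) to 0.44 (Zmat3, 95% interval 0.02 to 0.86, DESeq2 adjusted p = 0.190). For Cdkn1a this difference was 0.16 with an interval of -0.45 to 0.76, and for Eda2r 0.02 with -1.06 to 1.10.

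The members varied from library to library, in part in opposite directions. The mean over the 10 genes of the log2 difference from the Young Sham mean was 0.79, 0.70 and 1.03 in Aged Sham 13, 14 and 15, and -1.08, -0.47, -0.81 and -0.17 in Young Bleo 17 to 20. In Aged Bleo 1 and 2 it was -0.33 and -0.0080, and in Aged Bleo 3 and 5 it was 0.64 and 0.55. Aged Bleo 1 had the lowest value of its group for 7 of the 10 genes, and Young Bleo 20 the highest of its group for 6. Aged Sham 13 differed in profile from its group, being the highest of the 3 for Cdkn1a, Phlda3, Zmat3 and Bax and the lowest for Pmaip1, Mdm2, Ccng1, Trp53inp1 and Aen.

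**Figure D3:**
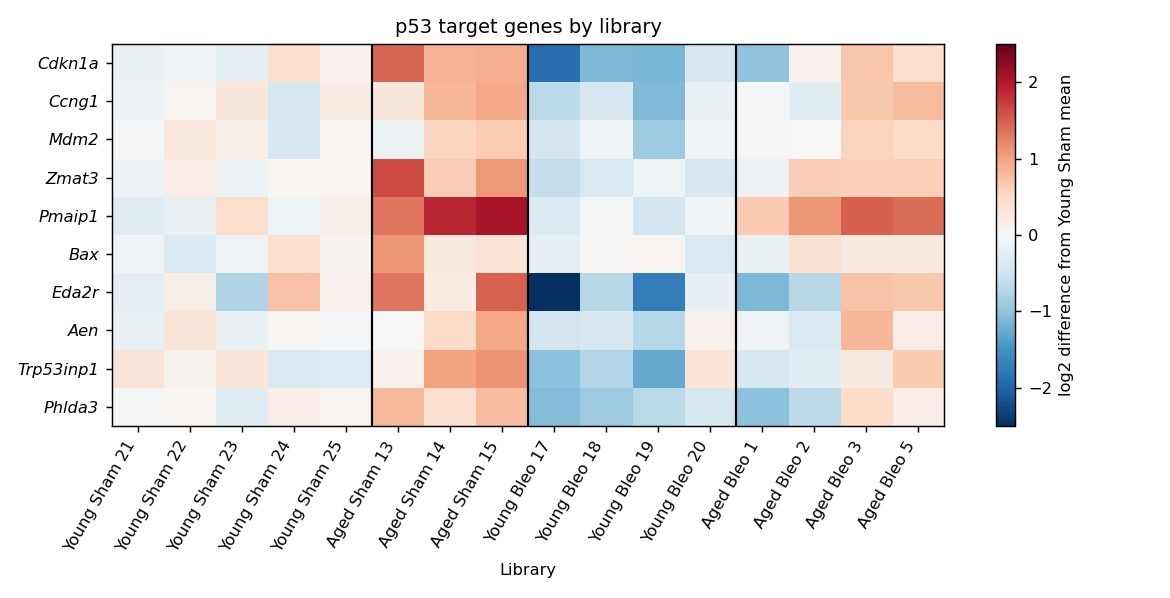
Each cell is the log2 difference of 1 gene (row) in 1 library (column) from the Young Sham mean, on log2(normalized count + 1), in red where higher and blue where lower, with colours ending at 2.5 in either direction. Eda2r in Young Bleo 17, at -4.01, is beyond that end. Most genes are lower in Aged Bleo 1 and 2 than in Aged Bleo 3 and 5, but Bax and Zmat3 are highest in Aged Bleo 2.

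Across the 16 libraries the genes ranked most like Cdkn1a were Gdf15 (Spearman's rho 0.994), Gpx3 (0.988) and Ccdc184 (0.959), among the 13774 genes whose normalized counts averaged 50 or more. Gdf15, itself a known p53 target, encodes a secreted stress cytokine, and Gpx3 a secreted glutathione peroxidase. Among the other members Phlda3 ranked 5th (0.953), Eda2r 10th (0.924) and Zmat3 29th (0.885), while Mdm2 was the farthest (0.571). The genes most like Eda2r were Phlda3 (0.944), Gdf15 (0.941) and Cd24a (0.941). These values describe 16 points that share the 4 groups, so they hold the group differences as well as the spread within groups.

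Gdf15 followed Cdkn1a at a larger scale. It had 13622, 11335 and 13459 normalized counts in Aged Sham and 1942 to 6029 (median 2481) in Young Sham. Young Bleo had 453, 1236, 1216 and 2194, and Aged Bleo 1579.8, 2543, 9985 and 5375, so that again libraries 1 and 2 were low. DESeq2 called it higher in Aged Sham than in Young Sham (log2 1.91 ± 0.52, adjusted p = 0.0124; edgeR adjusted p = 0.103), and the call was lost without any one of the 3 Aged Sham libraries (adjusted p = 0.133, 0.0502 and 0.0512 without 13, 14 and 15). It was also called higher in Aged Bleo than in Young Bleo (1.93 ± 0.50, adjusted p = 0.0189; edgeR adjusted p = 0.270), a call lost without any one of 6 libraries, with log2 1.31 and adjusted p = 0.252 without Aged Bleo 3. In Young Bleo against Young Sham it was called lower (-1.42 ± 0.48, DESeq2 adjusted p = 0.0239; edgeR adjusted p = 0.0915), and that call was made in 10 of the 16 fits that leave out 1 library.

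A second list, of 32 other known p53 targets, did not share the one-way pattern of the 10. In Aged Sham against Young Sham 23 of 32 were positive, with a median log2 fold change of 0.25 beside 0.74 for the 10 members. Of the 32, 4 were called higher (2.24% of all genes) and 0 lower (1.11%). Besides Gdf15, these were Dcxr, a carbonyl reductase (1.15 ± 0.22, DESeq2 adjusted p = 6.75e-05), Cd82, a tetraspanin (1.07 ± 0.22, 0.000176), and Tnfaip8, a regulator of cell death (1.33 ± 0.28, 0.000295). edgeR called Dcxr, Cd82 and Tnfaip8 too, with adjusted p-values of 0.0141 to 0.0219.

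In Young Bleo against Young Sham the 32 split evenly, 16 positive and 16 negative, with a median of -0.02. Of these, 4 were called higher (7.57% of all genes) and 4 lower (6.35%). Ak1, an adenylate kinase, rose by log2 1.72 ± 0.38 (DESeq2 adjusted p = 0.00017), and Ddit4, an inhibitor of mTOR signalling that also answers to low oxygen and glucocorticoids, by 1.88 ± 0.43 (0.000312). Bbc3, which encodes the BH3-only protein Puma, fell by 0.61 on the log2 scale (adjusted p = 0.0111), and Ddb2, which recognises damaged DNA, fell by 0.68 (0.0180). edgeR kept the first 3 of these (adjusted p = 0.00874, 0.0124 and 0.0415) and not Ddb2 (0.0597). Bbc3 was lost without Young Bleo 17 (DESeq2 adjusted p = 0.0506) or 19 (0.0678), and Ddb2 without Young Bleo 18 (0.0522) or 19 (0.0797).

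Against Young Sham, Aged Bleo had 4 of 32 called higher (6.58% of all genes) and 0 lower (3.14%). They were Ak1 (1.76 ± 0.38), Dcxr (0.91 ± 0.21), Ddit4 (1.88 ± 0.43) and Tnfaip8 (0.90 ± 0.25, lost without Aged Bleo 1 at a DESeq2 adjusted p of 0.0531). With bleomycin in aged ECs 1 of 32 was called lower (2.44% of all genes) and 0 higher (3.39%). This was Cd82 (-0.70 ± 0.23, DESeq2 adjusted p = 0.0393; edgeR adjusted p = 0.116), which was lost without any one of 5 libraries (adjusted p up to 0.249, without Aged Sham 15). Between ages after bleomycin Gdf15 was the 1 of 32 called higher (0.616% of all genes), and 0 were called lower (0.41%). The difference of the bleomycin responses was called for 0 of 32 by DESeq2, with 7 at an unadjusted p under 0.05.

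**Figure D4:**
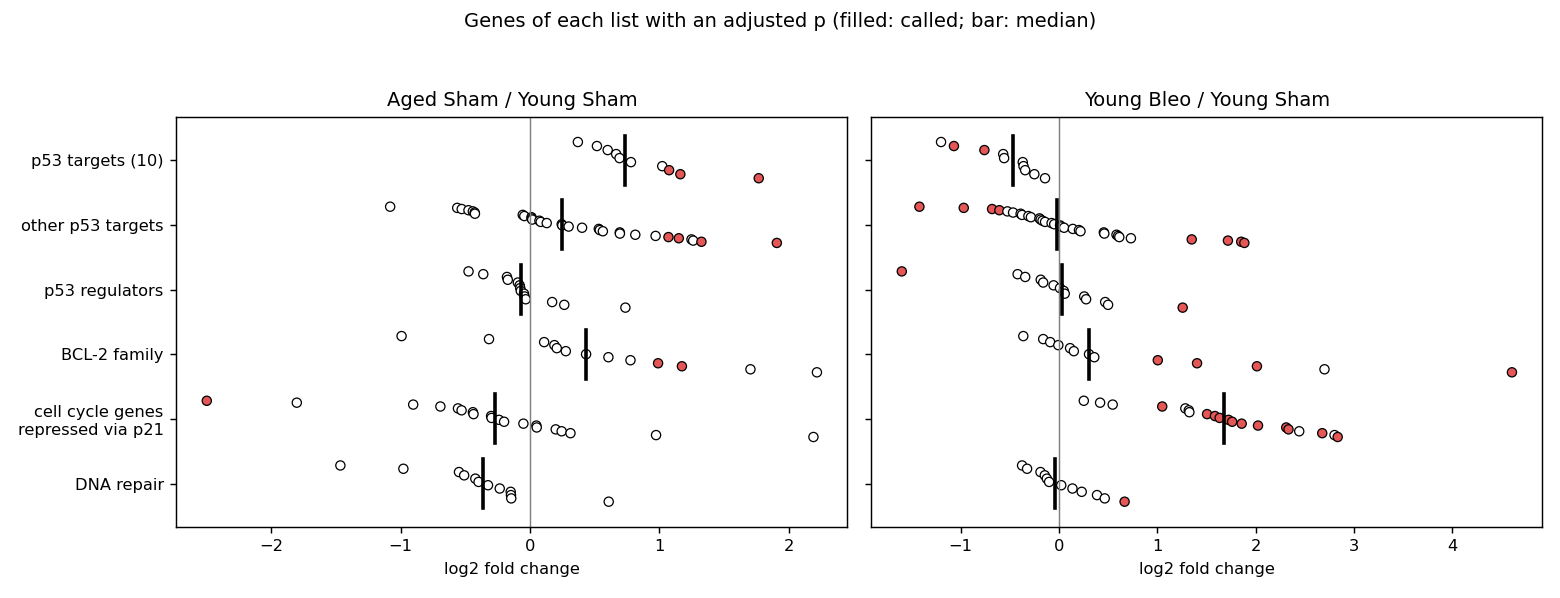
DESeq2 log2 fold changes (horizontal axes) of the genes of 6 lists (rows) in Aged Sham against Young Sham and in Young Bleo against Young Sham, for genes with an adjusted p. Filled points were called and thick bars mark the list medians. The 10 p53 targets are all right of 0 with age and all left of 0 with bleomycin, while the 20 cell cycle genes are all right of 0 with bleomycin.

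Regulators of p53 were read at the mRNA level. Trp53 itself had 4120.0 to 6011 normalized counts in Young Sham (median 4656), 3819 to 4984 in Aged Sham, 4699 to 6214 in Young Bleo and 3864 to 5454 in Aged Bleo. Its log2 differences were between -0.36 and 0.26 in the 5 pairwise comparisons and none was called (lowest DESeq2 adjusted p = 0.310). Its mean was lowest in Aged Sham, the group with the highest means of the 10 members. Mdm4, the partner of Mdm2 that blocks p53, lay between -0.37 and 0.27 and was not called either. p53 is controlled mainly after translation, and its protein was not measured here. Of 16 regulators 14 were tested. In Young Bleo against Young Sham 1 of 14 was called higher and 1 lower, beside 7.57% and 6.35% of all genes, and in Aged Bleo against Aged Sham 1 was called lower, beside 2.44%. Cdkn2a, the locus of the Mdm2 inhibitor Arf and of the kinase inhibitor p16, was lower with bleomycin in young ECs (log2 -1.60, DESeq2 adjusted p = 0.0107), a call lost with edgeR (0.0553) and without Young Bleo 17 (0.0599). In aged ECs it was also called lower (-1.66, 0.0456), lost with edgeR (0.142) and without any one of 10 libraries (-1.11, 0.305 without Aged Sham 13). The checkpoint kinase gene Chek2 was called higher with bleomycin in young ECs (1.26, 0.0119), lost without Young Bleo 18 (0.0821) or 19 (0.0683).

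A further list held 20 genes of the cell cycle that p21 holds down through the retinoblastoma pathway. All 20 had positive fold changes with bleomycin in young ECs, with a median log2 fold change of 1.68 (0.0095 over all genes), and 12 were called higher (7.57% of all genes), among them Ccnb2 (2.68, DESeq2 adjusted p = 5.38e-08), Birc5 (2.33, 6.68e-06) and Cdc20 (1.58, 1.78e-05). In aged ECs 20 of 20 were again positive against Aged Sham (median 1.45, beside 0.0061) and 8 were called higher (3.39%), among them Plk1 (3.49, DESeq2 adjusted p = 6.97e-06). Aged Bleo against Young Sham had 18 of 20 positive and 12 called higher (median 1.46, beside 0.02 and 6.58% over all genes), where 9 of 10 members were positive too. That count rested on single libraries, with 2 called without Aged Bleo 1, 3 without Aged Bleo 2 and 7 without Young Sham 25. In Aged Sham against Young Sham 7 of 20 were positive and 13 of 20 were negative (median -0.27) and Bub1b was the 1 called (log2 -2.5, DESeq2 adjusted p = 0.0373; edgeR adjusted p = 0.223). Bub1b had 18.7 to 113 normalized counts in Young Sham and 0 to 27.7 in Aged Sham, so the size of this difference is poorly set, at log2 -4.28 without Aged Sham 14 and -1.98 without Aged Sham 13. The call was lost without Aged Sham 13 (DESeq2 adjusted p = 0.159) or 15 (0.15) and without Young Sham 22 (0.116), 23 (0.12) or 25 (0.0585).

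Between some libraries of the bleomycin groups the cell cycle genes differed together with the macrophage and leukocyte markers given further on. Their summed normalized counts were 9863.2 and 10507 in Aged Bleo 1 and 2, where the macrophage sums were 178539 and 111027, and 3595.4 and 5066 in Aged Bleo 3 and 5, where those were 43710 and 27200. Aged Bleo 3 thus lay below every Young Sham library (3653.8 to 4555.8). Within Young Bleo the cell cycle sum was highest in library 18 (14663, macrophage sum 55335) and lowest in library 20 (6144.3, macrophage sum 18223), and all 4 libraries were above Young Sham. Other libraries went the other way. Aged Bleo 1 lay below 2, and 3 below 5, in the cell cycle sum but above them in the macrophage sum. Young Bleo 17 and 19 had cell cycle sums of 8656.8 and 9443.3 and macrophage sums of 48830 and 35086. Aged Sham had cell cycle sums of 2527.8 to 3897.7, highest in library 15, where the macrophage sum was the lowest (7910.5). The part of macrophages and leukocytes in the cell cycle values was not tested.

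Among the other BCL-2 family genes, of which 13 were tested, 2 were called higher in Aged Sham than in Young Sham (2.24% of all genes). Bid, which activates Bax, was higher in Aged Sham than in Young Sham (1.18 ± 0.24, DESeq2 adjusted p = 0.000214) and lower in Aged Bleo than in Aged Sham (-1.23 ± 0.25, 0.000262). Its bleomycin response differed between the ages by DESeq2 (aged minus young -1.38, adjusted p = 0.0205; edgeR adjusted p = 0.336), a call lost without Aged Sham 14 (0.0934), Young Bleo 17 (0.0565) or 18 (0.0594) or Young Sham 22 (0.0532). The pro-survival gene Bcl2l1 was also higher in Aged Sham than in Young Sham (0.99 ± 0.21, DESeq2 adjusted p = 0.00036). With bleomycin in young ECs 4 of 13 were called higher (7.57% of all genes). Of these, the family genes Bok (2.01), Bcl2a1b (4.61) and Bmf (1.40) had DESeq2 adjusted p-values of 9.68e-11, 4.67e-05 and 0.00475, where the members had negative values. Bok was called lower in Aged Bleo than in Young Bleo (-1.07, DESeq2 adjusted p = 0.0214; edgeR adjusted p = 0.222), a call lost without Aged Bleo 3 (0.119) or 5 (0.121) or Young Bleo 17 (0.167), 18 (0.062) or 19 (0.0772). Bcl2a1b (4.55, 0.00112) and Bmf (1.65, 0.0103) were called higher with bleomycin in aged ECs as well, and there edgeR called neither (0.0733 and 0.0822). The Bcl2a1b value was 6.53 without Aged Sham 14, where counts in Aged Sham were 0.914 to 38.1, and Bmf was lost without Aged Bleo 1 (DESeq2 adjusted p = 0.0954), Aged Bleo 2 (0.0533) or Aged Sham 13 (0.0765).

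Markers of other cells also differed between these groups and libraries. The summed normalized counts of 6 platelet and megakaryocyte markers were 70114 to 371889 in Aged Sham, 29714 to 51704 in Young Sham, 10721 to 26331 in Young Bleo and 6278.6 to 49976 in Aged Bleo, highest in Aged Sham and with the lowest median in Young Bleo, as for the members. No platelet marker was at 0 in any library, and 4 of 6 were called higher in Aged Sham than in Young Sham. Aged Sham 14 had the highest platelet sum (371889), and the other Aged Sham libraries (70114 and 99606) were also above every Young Sham library. Within Aged Sham the order was the reverse of the members, whose mean log2 difference from Young Sham was lowest in library 14 (0.70). It was highest in library 15 (1.03), which had the lowest platelet sum (70114). Within Aged Bleo libraries 1 and 2 had platelet sums of 6278.6 and 20905, and libraries 3 and 5 had 42071 and 49976. There the mean of the members was also lower in libraries 1 and 2. Young Bleo 17 to 20 had 20129, 10721, 21465 and 26331. The 15 macrophage and leukocyte markers summed to 3534.5 to 5601.6 in Young Sham, 7910.5 to 23926 in Aged Sham, 18223 to 55335 in Young Bleo and 27200 to 178539 in Aged Bleo, with 2 to 4 of the 15 at 0 in the Young Sham libraries. Called higher were 3 of 15 in Aged Sham and 8 of 15 in Young Bleo against Young Sham. Within Aged Bleo they were highest in libraries 1 (178539) and 2 (111027), the pair with the lower p53 targets. Within Young Bleo they were lowest in library 20 (18223), where the mean log2 difference of the p53 targets from Young Sham was highest (-0.17). The other Young Bleo libraries did not all follow that order. The marker sum was highest in library 18 (55335), where that mean was -0.47. Libraries 17 and 19 had sums of 48830 and 35086 and means of -1.08 and -0.81. The 10 endothelial markers summed to 776360 to 933857 in Young Sham, 730897 to 838100 in Aged Sham, 563748 to 664831 in Young Bleo and 524247 to 692350 in Aged Bleo.

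The 5 mesothelial markers summed to 120.26 to 521.49 in Young Sham, 1129 to 3532.1 in Aged Sham, 1387 to 3892.6 in Young Bleo and 305.88 to 1681 in Aged Bleo, and 3 of 5 were called higher in Aged Sham than in Young Sham. Of the red cell markers 5 of 6 were tested and 2 called higher in that comparison, with sums of 2536.2 to 13537 in Young Sham, 20524 to 46857 in Aged Sham, 11709 to 52465 in Young Bleo and 10511 to 37577 in Aged Bleo. The 6 smooth muscle and pericyte markers were all negative there, 2 of them called lower, with sums of 7625.4 to 16567, 5537.2 to 9199.9, 3327.7 to 8768.8 and 2327 to 3413.8 in the same order. Of 7 fibroblast markers 3 were positive there, 1 of them called higher, and 4 negative (median log2 fold change -0.55), and 8 of 10 epithelial markers were positive. The fibroblast sums were 8074.1 to 18234 in Young Sham, 6556 to 11613 in Aged Sham, 8822.4 to 14876 in Young Bleo and 3899.6 to 7002.3 in Aged Bleo, where every library was below Young Sham and 5 of 7 markers were called lower against it. With bleomycin in young ECs 4 of 5 mesothelial markers were called higher and 2 of 6 smooth muscle and pericyte markers lower. The part of any of these in the results on the members was not tested.

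**Figure D5:**
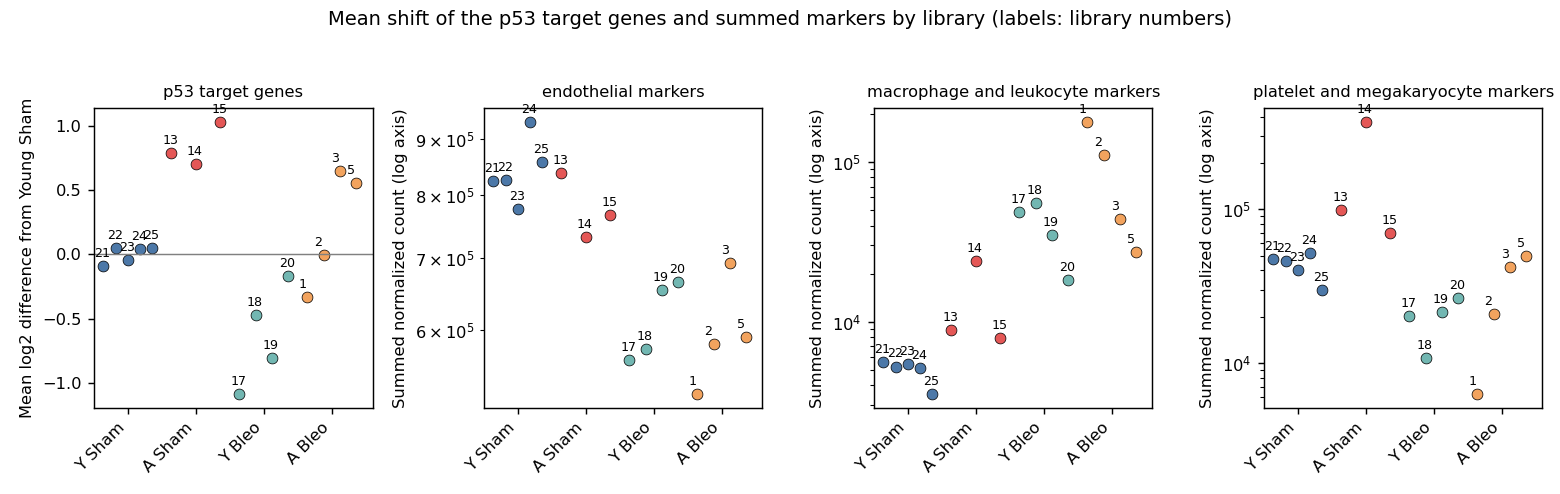
The left panel gives the mean over the 10 p53 target genes of the log2 difference from the Young Sham mean, per library. The other panels give the summed normalized counts of 3 marker lists on log axes, and numbers beside the points are library numbers. Aged Bleo 1 and 2 have the lowest p53 target means and the highest macrophage sums of their group.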

How the data were processed

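The authors aligned paired-end reads to the mouse genome mm10 with STAR (version 2.5.2b) and counted them with Subread featureCounts; the annotation release and strand setting are not given in the sources used here. The labels name SMART-Seq and Nextera library kits, and the study's methods a poly(A) TruSeq kit. The deposited table holds whole read counts and FPKM values per gene and library. The members and gene lists were chosen with earlier results of these data known. The tests used DESeq2 version 1.42.0 in R 4.3.3 on the counts (Wald test, all 16 libraries in 1 model with group as its only term), as the study's methods name DESeq2. All 10 members had an adjusted p in each comparison. Intervals are 95% Wald intervals. Alternatives were edgeR (version 4.0.16), limma (version 3.58.1) on counts and on log2(FPKM + 0.1) or log2(FPKM + 1), TMM scaling, count filters, 2-group fits and leaving out each library. Besides the 10 members, genes were named by rule: up to 4 called p53 targets and up to 3 called genes of other lists with the lowest adjusted p per comparison, called regulators with Trp53 and Mdm4, and the 3 genes ranked most like Cdkn1a and Eda2r. Gene coordinates are those of the deposited table (mm10), strands come from GENCODE M21, and 3 list genes were found by an older symbol. The tests were tested on simulated data, in which DESeq2's share of false calls was above its nominal rate and edgeR's was not. These data were drawn with edgeR's estimates of library size and spread, which can favour edgeR. Per-library columns of samples outside the series numbered 0.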

Additional observations from a re-analysis of the deposited data

Results flagged for a closer look

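Of 30 groups of 4 or 5 libraries checked for a library far from the others (the 10 members in Young Sham, Young Bleo and Aged Bleo), 1 stood out, where chance marks about 1 in 20. Zmat3 in Aged Bleo 1 had 452 normalized counts, and the other 3 libraries of that group had 755 to 770.2. Without that library Zmat3 was lower in Aged Bleo than in Aged Sham by log2 -0.57 (DESeq2 adjusted p = 0.182). The DESeq2 test of the difference between the ages in the response to bleomycin called 0 members, none of which had an unadjusted p under 0.05.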

How the results depend on the processing

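Groups held 3 to 5 libraries, and the lowest count of a member was 25 reads, for Eda2r in Young Bleo 17. No called member changed sign under any of 25 alternatives, Pmaip1 was called in all 25 for Aged Sham or Aged Bleo against Young Sham, and Cdkn1a in 24 of 25 for Young Bleo against Young Sham. No paired analysis was possible because the title numbers do not repeat between groups.

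Members called in Aged Sham against Young Sham went from 3 to 5 when these groups were fitted alone, and to 1 under each limma setting. Calls over all genes moved the same way, from 621 to 801 with these groups alone and to between 104 and 155 under limma. In Young Bleo against Young Sham 2 went to 1 under both edgeR settings, limma voom and FPKM with a low-value filter, and to 0 under unfiltered FPKM. With bleomycin in aged ECs 1 went to 0 under every alternative test, filter and scaling. Between ages after bleomycin 3 went to 1 under edgeR, voom and filtered FPKM, and to 0 under unfiltered FPKM. In these settings calls over all genes also fell. They went from 2578 to between 1446 and 2000 in Young Bleo against Young Sham. In Aged Bleo they went from 1080 to between 53 and 1072 against Aged Sham, and from 190 to between 8 and 53 against Young Bleo. Leaving out 1 library gave 2 to 4, 1 to 5, 0 to 3 and 1 to 5 members called for these 4 comparisons, in the order above. It gave 1 to 1 for Aged Bleo against Young Sham and 0 to 0 for the difference of responses. The highest counts came without Young Sham 24 (4), Young Bleo 20 (5), Aged Bleo 3 (3) and Aged Bleo 1 (5), where calls over all genes also went up, from 621 to 676, 2578 to 3339, 1080 to 1492 and 190 to 360. The lowest came in Young Bleo against Young Sham without Young Bleo 17 or 18 or Young Sham 24, and in Aged Bleo against Young Bleo without Aged Bleo 3 or 5 or Young Bleo 17 or 18 (1 each). There calls over all genes went down too, from 2578 to 1807, 1904 and 2365, and from 190 to 131, 115, 157 and 150.

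Of the other p53 targets, 4 called in Aged Sham against Young Sham went to 1 with FPKM and 2 with voom. In Young Bleo against Young Sham 8 went to 3 under filtered edgeR, voom and log2(FPKM + 0.1), and to 2 under unfiltered edgeR and log2(FPKM + 1). In Aged Bleo against Young Sham 4 went to 2 under unfiltered FPKM. With bleomycin in aged ECs 1 went to 0 under edgeR, TMM scaling and limma, and in Aged Bleo against Young Bleo 1 went to 0 under edgeR, the count filter and limma. Leaving out 1 library gave 3 to 5, 3 to 9, 3 to 5, 0 to 2 and 0 to 3, and 0 to 1 for the difference of responses. Fewest were called in Young Bleo without library 19 (3) or 17 (4) and without Young Sham 24 (5), and most in Aged Bleo against Young Bleo without Young Bleo 20 (3). Without these libraries calls over all genes went from 2578 to 1979, 1807 and 2365, and from 190 to 469. They were also fewer under each other test, filter and scaling named here.

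Signs changed only for differences that were not called. Eda2r in Aged Bleo against Young Sham was -0.080 on log2(FPKM + 0.1), filtered or not, -0.0043 on log2(FPKM + 1) and -0.13 with voom. Mdm2 in Aged Bleo against Aged Sham was 0.047 on log2(FPKM + 0.1), filtered or not, and 0.036 on log2(FPKM + 1). In the difference of responses Eda2r was -0.057 on log2(FPKM + 1), and Trp53inp1 0.051 on log2(FPKM + 0.1), filtered or not. Without 1 library, Aged Bleo against Young Sham ran from -0.092 to 0.34 for Aen, -0.063 to 0.40 for Cdkn1a, -0.25 to 0.28 for Eda2r, -0.20 to 0.0080 for Mdm4, -0.43 to 0.052 for Phlda3 and -0.16 to 0.22 for Trp53inp1. Aged Bleo against Aged Sham ran from -0.30 to 0.045 for Mdm2, -0.068 to 0.24 for Mdm4 and -0.032 to 0.20 for Trp53. The difference of responses ran from -0.27 to 0.30 for Aen, -0.46 to 0.015 for Bax, -0.069 to 0.44 for Cdkn1a, -0.17 to 0.70 for Eda2r, -0.34 to 0.14 for Phlda3 and -0.40 to 0.32 for Trp53inp1. The cause was not tested.

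Values on log2(FPKM + 0.1) moved the median log2 fold change of all genes to -0.11 in Aged Sham against Young Sham and to 0.12 in Aged Bleo against Aged Sham, where the members' medians were 0.56 and -0.48. On log2(FPKM + 1) these were -0.053 and 0.058 over all genes and 0.43 and -0.34 over the members, which were 0.74 and -0.65 on counts. edgeR called 158 genes in all where DESeq2 called 621 in Aged Sham against Young Sham, and 146 against 1080, 8 against 190, 1043 against 1800 and 1 against 74 in Aged Bleo against Aged Sham, Young Bleo and Young Sham and in the difference of responses.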
